A study of Caenorhabditis elegans with 2 samples.

Results

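A ChIP-seq peak list of SDC-2 in Caenorhabditis elegans late embryos held 26640 peaks when the reads of both replicates were pooled, and 5714 of them lay on the X chromosome. The 4037 described here are the X peaks that are missing from the authors' list thresholded by irreproducible discovery rate (IDR, a measure of how well 2 replicates rank the same peaks) and whose summit, the position of the highest signal in a peak, lay outside every coding exon of a protein-coding gene. They are called weak noncoding X peaks. For comparison, 549 noncoding X peaks passed the IDR threshold, and 13985 noncoding peaks on the autosomes did not. Membership was decided by position and by absence from the IDR list. Since that list, with 1344 entries, is the top of the pooled list by signal, the low signal of the weak peaks follows from the choice and is given as a description.

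The worms were of strain OP92, a transgenic line in which the C terminus of SDC-2 is fused to GFP and FLAG. The labels name neither the promoter of the tagged gene nor the number of its copies. Whole hermaphrodites of the late embryonic stage were collected 3.25 hours after synchronization by egg bleaching, their chromatin was sonicated, and tagged SDC-2 was precipitated with an antibody against GFP. There were 2 biological replicates of 1 group, with no second genotype or treatment, and per the deposited texts 1 control alignment was shared by the calls on each replicate and on the pool. Signal comes from all cells of the animal, so a site bound in few cells and a site bound weakly in many cannot be told apart. The replicate lists, which like the pooled list hold peaks together with background, had 25174 peaks in replicate 1 and 24450 in replicate 2. No read counts are given, so the depth is unknown, and all intervals below are exact 95% intervals that cover the counting of peaks only.

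SDC-2 is the hermaphrodite-specific protein that brings the dosage compensation complex, a condensin-based complex, to both X chromosomes, where it lowers transcription so that XX animals match XO males. The complex is known to load at strong recruitment elements on X, many of them marked by a short motif called MEX, and to spread from there to weaker sites, often at promoters of active genes.

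Short sequence words that mark the stronger X peaks were taken to the weak ones. The words were chosen on the 549 noncoding X peaks past the threshold, which are not among the weak peaks, as the 5 words of 8 letters with the largest excess within 100 bp of summits over windows 2000 bp to either side. They are AGACGCAG, GAGAGAGA, AGAAAGAG, ACACACAC and CTCTCTTC, each searched on both strands. A sixth word, TCCCTGCGCGAA, is the 12-letter sequence found with at most 2 mismatches in the most windows (15 of 20) of the 20 strongest X summits. Read on the other strand, it closely resembles MEX. The sequences below are read from the + strand of WBcel235 (ce11) within 100 bp of a summit, and capitals mark matches to these words on either strand. They show the 5 strongest weak peaks with such a word, the strongest without any, and the 1 weak peak with an exact copy of the 12-letter word, which was chosen after its values were seen. Each is named by the nearest protein-coding 5′ end. For C17G1.5 and fubl-3, whose summits lie in untranslated exons, a stretch of 30 bases around the match is given.
C17G1.5, chrX:9941577-9941606: gggggcacatgAGACGCAGacagttgaggg
nipi-3, chrX:15607586-15607786: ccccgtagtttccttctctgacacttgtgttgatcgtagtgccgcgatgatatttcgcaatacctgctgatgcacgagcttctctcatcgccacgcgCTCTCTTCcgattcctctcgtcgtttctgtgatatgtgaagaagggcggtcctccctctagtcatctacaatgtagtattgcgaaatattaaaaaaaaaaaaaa
fubl-3, chrX:17434372-17434401: ataaattcACACACACACACACaaaaacga
W06D11.1, chrX:12294295-12294495: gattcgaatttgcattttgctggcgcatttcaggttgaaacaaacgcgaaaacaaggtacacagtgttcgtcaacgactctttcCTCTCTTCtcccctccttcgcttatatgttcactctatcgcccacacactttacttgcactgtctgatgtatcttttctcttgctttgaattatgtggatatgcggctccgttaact
hda-4, chrX:16727088-16727288: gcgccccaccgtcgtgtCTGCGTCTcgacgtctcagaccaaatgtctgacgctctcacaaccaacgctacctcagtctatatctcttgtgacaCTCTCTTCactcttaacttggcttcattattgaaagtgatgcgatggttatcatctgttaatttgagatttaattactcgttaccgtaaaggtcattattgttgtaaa
T18D3.9, chrX:12454432-12454632: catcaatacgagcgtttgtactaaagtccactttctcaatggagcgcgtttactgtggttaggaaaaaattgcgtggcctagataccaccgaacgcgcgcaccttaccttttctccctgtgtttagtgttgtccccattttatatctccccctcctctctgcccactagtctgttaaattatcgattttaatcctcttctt
ctbp-1, chrX:5859783-5859983: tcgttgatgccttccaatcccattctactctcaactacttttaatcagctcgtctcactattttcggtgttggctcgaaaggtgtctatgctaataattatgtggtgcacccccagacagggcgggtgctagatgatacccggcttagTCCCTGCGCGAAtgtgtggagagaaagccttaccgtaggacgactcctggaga

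Of these 7 peaks, the ones at C17G1.5 and hda-4 carry AGACGCAG, in hda-4 on the other strand. The hda-4 peak lay closer than 250 bp to the summit of an IDR peak and was found in replicate 1 and not in replicate 2. Those at nipi-3, W06D11.1 and hda-4 carry CTCTCTTC. The fubl-3 peak carries ACACACAC inside a longer run of the same repeat, so its 4 matches overlap. The peak at T18D3.9, the strongest of all weak noncoding X peaks, carries none of the 6 words. The ctbp-1 peak carries the 12-letter word and none of the 5 shorter ones. A match is a description of the letters and not of a binding site.

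Over all weak noncoding X peaks, 617 (15.3%) held at least 1 of the 5 short words within 100 bp of the summit, against 5.30% of the 70555 noncoding X windows of the same length and 40.6% of the noncoding X peaks past the IDR threshold. The share was lower at lower ranks, with 34.7% among weak peaks to rank 2500 of the pooled list, 24.1% between ranks 2500 and 5000, 18.6% between ranks 5000 and 10000 and 9.89% beyond rank 20000. The words were chosen for their excess in the X peaks past the threshold, so the shares of those peaks are raised by the choice. AGACGCAG was in 75 weak X peaks (1.86%, interval 1.46 to 2.32%), in 12.6% of the X peaks past the threshold and in 0.642% of noncoding X windows. In weak autosomal peaks it was found in 5.10%, a difference of -3.24 percentage points (two-sided Fisher exact test, p adjusted over the 5 words = 2.61e-21). Autosomal noncoding windows also held it more often, 1.43%, so that the excess over windows was 2.89 times on X and 3.57 times on autosomes.

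GAGAGAGA was likewise less common in weak X peaks than in weak autosomal peaks, 4.33% against 6.01% (Fisher exact, adjusted p = 8.28e-05), with an excess over windows of 3.46 times on X and 3.71 times on autosomes. ACACACAC was in 4.76% on X and 3.93% on autosomes (Fisher exact, adjusted p = 0.0361), and this difference was -0.0450 points when only peaks without any coding base were used. For AGAAAGAG the shares were 3.94% and 3.45% (Fisher exact, adjusted p = 0.185) and for CTCTCTTC 2.85% and 2.75% (Fisher exact, adjusted p = 0.744), and neither passed. Weak X peaks with AGACGCAG had a median signal of 42.3 and those without it 32.6. Peaks with each of the other words also had the higher median signal, from 38.1 for AGAAAGAG to 44.6 for CTCTCTTC.

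The 12-letter word with at most 2 mismatches was in 27 weak noncoding X peaks (0.669%, interval 0.441 to 0.972%), in 0.658% of weak autosomal peaks and in 0.369% of noncoding X windows. Of the X peaks past the threshold 30 (5.46%) held it. The word was chosen on the 20 strongest X summits, so the shares of X peaks past the threshold are raised by the choice. The shares of weak X and weak autosomal peaks stood side by side and were not tested. With at most 1 mismatch the count was 5 weak peaks on X (0.124%), against 10 (1.82%) of the X peaks past the threshold. Weak autosomal peaks then held it in 0.0286% and noncoding X windows in 0.0369% of cases. With at most 3 it was 328 weak X peaks (8.12%), beside 8.23% of weak autosomal peaks. Noncoding X windows then had 4.76% and X peaks past the threshold 17.7%.

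The exact copy lay in an intergenic peak of rank 1467 at chrX:5859658-5860107, 2825 bp upstream of ctbp-1, which encodes a transcriptional corepressor. Its pooled signal was 79.5, and it was 40.2 in replicate 1 and 38.4 in replicate 2. The other 4 with at most 1 mismatch lay in introns of F09E10.5 (signal 71.6) and of the dystroglycan gene dgn-1 (51.2), upstream of gnrr-4 (37.1), and 962 bp upstream of aak-2 (26.9), which encodes a catalytic subunit of AMP-activated kinase. The 5 peaks thus spread from rank 1467 to rank 19606. The one in F09E10.5 lay 213 bp from an IDR summit and had 15.8 in replicate 1 and 72.2 in replicate 2. Those at dgn-1 and aak-2 were found in replicate 1 and not in replicate 2.

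The signal, a value given to each peak by the authors' caller, ran from 22.5 to 82.3 among the weak noncoding X peaks, with quartiles of 26.7, 32.8 and 44.1. The quartiles of the weak autosomal peaks were 26.3, 31.8 and 41.6, and the median of the noncoding X peaks past the threshold was 136. The 5 strongest weak peaks had signals of 82.2 to 82.3, and the 5 weakest noncoding X peaks past the threshold 82.5 to 83.2. The −log10 q-value of the caller had a median of 0.203 and a maximum of 2.59. It reached 1 in 583 peaks (14.4%) and 2 in 157 (3.89%). The peaks were 450 bp wide in 4033 of 4037 cases. Of all, 1124 (27.8%) contained a coding base away from the summit, and in 357 (8.84%) a coding base lay within 50 bp of it, so the noncoding label applies to the summit rather than to the whole peak.

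The weak peaks were divided into 6 bands by rank in the pooled list, each band ending with the rank that names it. The band to rank 2500 held 294 weak noncoding X peaks with signals of 64.05 to 82.3, and the band to rank 5000 held 435 with signals of 49.2 to 63.95. There were 818 to rank 10000 (37.1 to 49.2), 751 to rank 15000 (30.8 to 37.1), 758 to rank 20000 (26.6 to 30.8) and 981 to the last rank, 26640 (22.5 to 26.6). The bands differed first in how often the replicates held the peak.

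A weak peak was counted as found in a replicate when that replicate's list had a summit within 100 bp. Of the 4037 peaks, 2369 (58.7%) were found in replicate 1, 2358 (58.4%) in replicate 2 and 1223 (30.3%, interval 28.9 to 31.7%) in both. A further 1146 were found in replicate 1 alone, 1135 in replicate 2 alone and 533 (13.2%) in neither. The share in both depended on this distance. It was 19.5% with summits within 50 bp, 42.5% within 200 bp and 54.9% when peaks had to overlap by 1 bp. Among all nuclear peaks below the IDR threshold, coding ones included, 27.9% were found in both, and of noncoding X bases 2.29% lay within 100 bp of a summit of each replicate. The noncoding X peaks past the threshold were found in both in 96.0% of cases. The IDR list is the top of the pooled list by signal, so that share belongs to peaks set apart by high signal. The pooled list was called on the same reads as the replicate lists, so these shares do not measure independent recovery.

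Presence in both replicates followed the band. It was 83.7% (interval 78.9 to 87.7%) in the band to rank 2500, 78.2% (73.98 to 81.96%) in the band to rank 5000, and 50.7% (47.2 to 54.2%) in the band to rank 10000. From there it went to 20.4% (17.5 to 23.4%), 6.86% (5.17 to 8.90%) and 1.73% (1.01 to 2.76%) in the last 3 bands, the last of these below the 2.29% of bases. Weak peaks found in both had signals of at least 13.1 in replicate 1 and 14.03 in replicate 2. The lower ends of the replicate lists bear on what can be found in both there, so nothing is read from the comparison with bases. In that last band 645 peaks (65.7%) were found in 1 replicate and 319 (32.5%) in neither, while in the first band 47 were found in 1 replicate and 1 in neither. The median pooled signal was 48.5 for peaks found in both, 29.98 for those found in 1 and 25.6 for those found in neither.

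**Figure D1:**
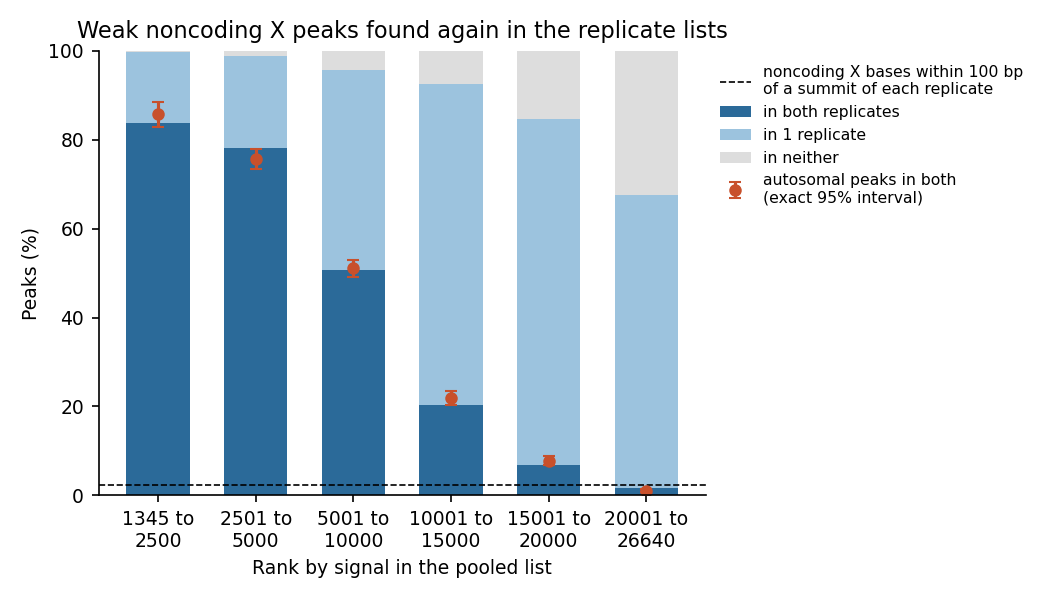
Share of weak noncoding X peaks (%, vertical axis) found in both replicates, in 1 or in neither, by rank in the pooled list (horizontal axis). Points are the weak autosomal peaks found in both with exact 95% intervals, and the dashed line is the 2.29% of noncoding X bases near a summit of each replicate. The share in both goes from 83.7% to 1.73%, and the autosomal points lie close to the X bars in every band.

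Weak noncoding autosomal peaks were found in both replicates in 27.6% of cases (interval 26.8 to 28.3%), 2.73 points less than on X (two-sided Fisher exact, adjusted p = 0.00514). Within none of the 6 bands did X and autosomes differ past the threshold, with adjusted Fisher exact p from 0.354 to 0.873. In the first band the autosomal share was 85.9% and in the second 75.7%. The overall difference also missed the threshold when summits had to lie within 50 bp (1.66 points, Fisher exact, adjusted p = 0.120) and when only ranks to 10000 were used (1.62 points, adjusted p = 0.500). More of the weak X peaks than of the weak autosomal peaks lay in the upper bands, as the X shares further on show, and the part of rank in the overall difference was not tested beyond the bands.

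In the 1223 peaks found in both, the replicate signals, which are on a scale of their own in each list, ran from 13.1 to 56.3 with a median of 22.4 in replicate 1 and from 14.03 to 84.1 with a median of 24.0 in replicate 2. Across these peaks, which share 2 libraries and are not independent, the Spearman correlation of the replicate signals was 0.283. It was -0.227 among the 586 of them to rank 5000, whose pooled signal has a narrow range (49.2 to 82.3). The choice of weak peaks limits the range of signal and so bears on these correlations, which are given as a description. Of the weak noncoding X peaks, 69 were among the strongest 1344 of replicate 1 and 64 among the strongest 1344 of replicate 2, and 0 among both. Since the weak peaks are by choice outside the strongest 1344 of the pooled list, nothing is read from these counts.

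**Figure D2:**
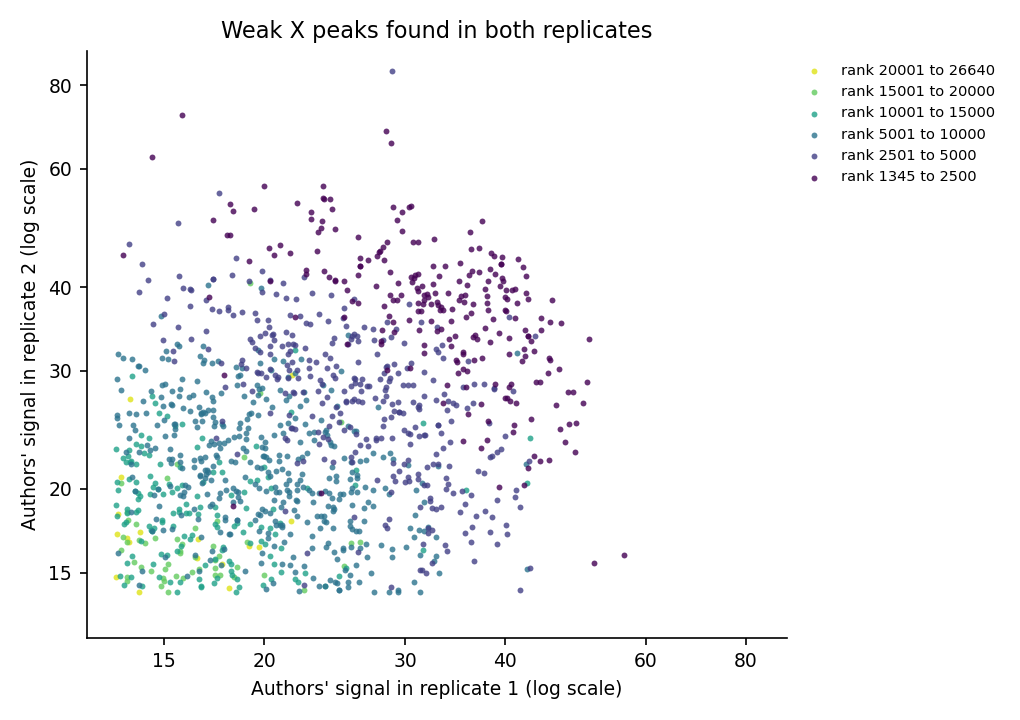
Authors' signal in replicate 1 (horizontal, log scale) and replicate 2 (vertical, log scale) of the 1223 weak noncoding X peaks found in both, 1 point a peak, coloured by rank band in the pooled list. The scales of the axes belong to separate lists. Points of a band lie along a falling diagonal, since the bands are cut from the pooled signal, and medians are 22.4 in replicate 1 and 24.0 in replicate 2.

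The 15 strongest weak noncoding X peaks had signals of 81.6 to 82.3, and 14 of them were found in both replicates. The first lay at chrX:12454307-12454756, 75 bp upstream of T18D3.9, with 42.2 in replicate 1 and 42.9 in replicate 2. The second, at chrX:11379105-11379554, lay 1860 bp upstream of tni-1, a troponin I gene of muscle, and had 50.1 in replicate 1 and 26.8 in replicate 2. The third lay 422 bp upstream of pat-9, a zinc finger gene needed for body wall muscle (42.8 and 38.4). All 3 were thus held by both replicate lists and lay upstream of the gene start.

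Most of the other strong ones also lay next to gene starts. Peaks at C34E11.2 (123 bp upstream), F53H4.4 (54 bp), the carboxylesterase gene cest-16 (172 bp), the Tribbles-like kinase gene nipi-3 (283 bp), F40E10.5 (251 bp), W06D11.1 (168 bp) and the stomatin gene sto-1 (38 bp) were intergenic and upstream. The peak at C05D9.9 lay 1810 bp downstream of a 5′ end. Those at C17G1.5 and fubl-3 were in untranslated exons, 44 bp upstream of and at a 5′ end. Introns held the peaks of inx-1, a gap junction innexin gene (552 bp downstream of a 5′ end), and of lin-14, the heterochronic gene repressed by the lin-4 microRNA (5989 bp from the nearest of its 5′ ends). The peak at W06D11.1 was the one of the 15 not found in both, with 33.8 in replicate 1 and none in replicate 2. Over these 15, the replicate 1 signal ran from 33.8 to 50.1, and replicate 2 values, where present, from 26.8 to 48.4.

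The strongest peaks found in neither replicate stood lower. They lay 1213 bp upstream of lido-1 (signal 73.3, rank 1778), 279 bp upstream of F54E4.3 (61.2), 5611 bp upstream of the nuclear receptor gene nhr-1 (51.4), in an untranslated exon of asns-2, an asparagine synthetase gene (50.2), and 163 bp upstream of acl-12 (49.6). The lido-1 peak is the single one of the first band that no replicate list held within 100 bp.

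The weak peaks lay more densely on X than on autosomes. X had 285 per Mb of noncoding sequence and the autosomes 228, a ratio of 1.25, and by chromosome the densities were 266 on I, 261 on II, 269 on III, 183 on IV and 189 on V. X thus stood above each autosome, by little over III, I and II. X held 18.8% of noncoding bases, 22.4% (interval 21.8 to 23.0%) of the weak noncoding peaks and 42.8% of the noncoding peaks past the threshold.

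The X share depended on rank. It was 31.1% (294 of 945, interval 28.2 to 34.2%) in the band to rank 2500, 23.8% (21.9 to 25.8%) in the band to rank 5000 and 23.2% (21.8 to 24.6%) in the band to rank 10000. The last 3 bands had 21.3%, 21.6% and 20.9% (19.7 to 22.0%). The first band exceeded the last by 10.3 points (two-sided Fisher exact p = 2.41e-11). In the list of replicate 1 alone, without replicate 2, it did so by 6.48 points, with 27.3% and 20.8%. In every band the lower bound of the interval was above the 18.8% of bases. With coding peaks counted in, the difference was 8.14 points on ce11 and 8.28 points in the lists on the older build ce10.

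**Figure D3:**
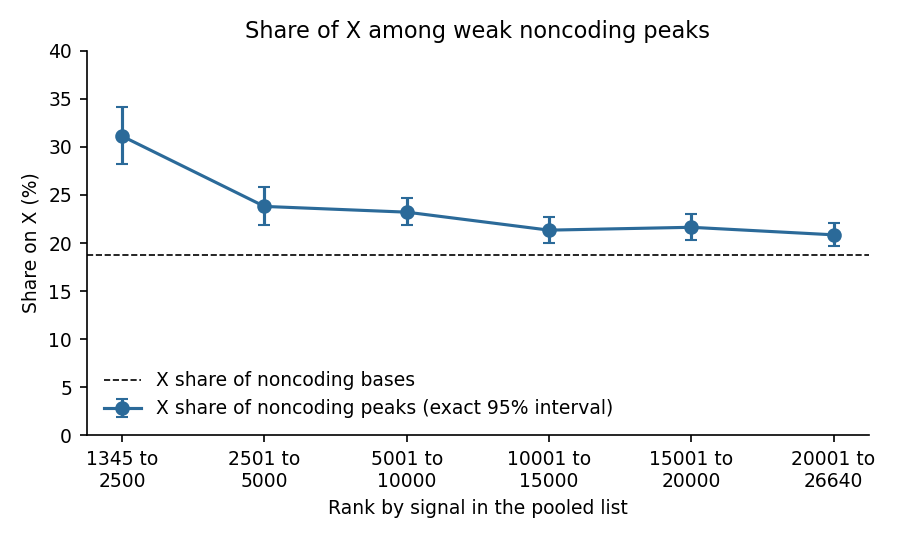
Share of the weak noncoding peaks that lay on X (%, vertical axis) by rank in the pooled list (horizontal axis), with exact 95% intervals. The dashed line marks the X share of noncoding bases, 18.8%. The share is 31.1% in the first band and 20.9% in the last, above the line throughout.

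In relation to genes, 1543 weak noncoding X peaks (38.2%, interval 36.7 to 39.7%) had their summit within 1000 bp of the 5′ end of a protein-coding transcript, where 33.9% of noncoding X bases lay. Over all nuclear peaks below the IDR threshold, this share was 44.8%. On autosomes it was 44.8% of weak noncoding peaks too, a difference of -6.59 points for X minus autosomes (two-sided Fisher exact, adjusted p = 1.09e-13), and 40.03% of noncoding bases, so the excess over bases was 1.13 times on X and 1.12 times on autosomes. With the 5′ ends of all gene types X had 60.5% and the autosomes 60.6%, which did not differ past the threshold (Fisher exact, adjusted p = 0.869). The noncoding X peaks past the threshold were nearer to starts, with 292 of 549 (53.2%) within 1000 bp, and the difference of the weak ones to them was -14.97 points (Fisher exact, adjusted p = 3.44e-11). The median distance was 1456 bp for weak X peaks, 1200 bp for weak autosomal ones and 852 bp for X peaks past the threshold.

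**Figure D4:**
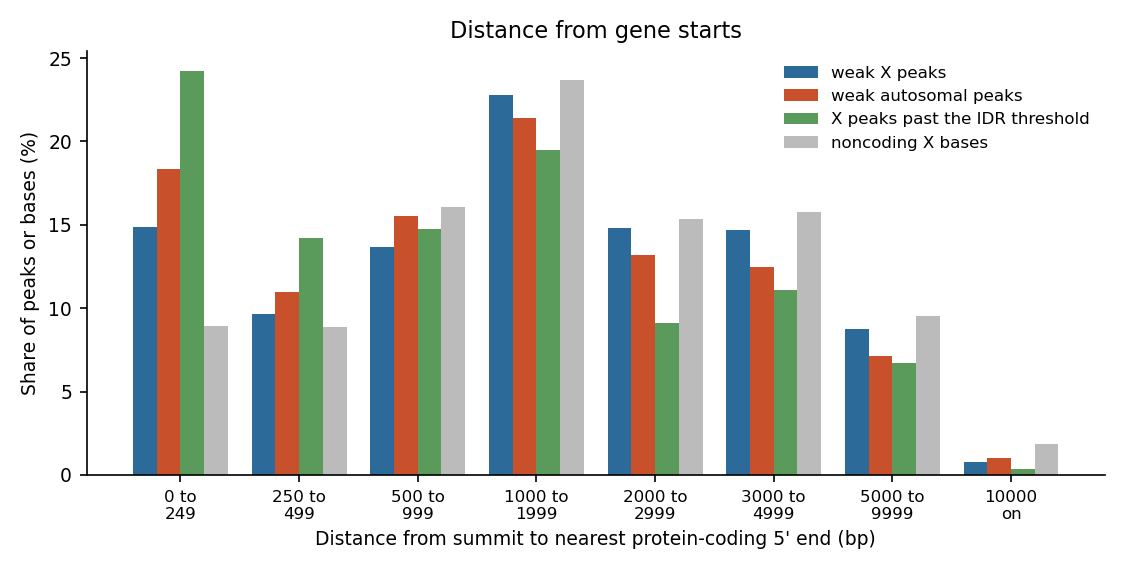
Share of peaks or bases (%, vertical axis) by distance from the summit or base to the nearest protein-coding 5′ end (bp, horizontal axis), for weak noncoding X peaks, weak noncoding autosomal peaks, noncoding X peaks past the IDR threshold and noncoding X bases. Closer than 250 bp lie 14.9% of weak X peaks, 18.3% of weak autosomal peaks, 24.2% of X peaks past the threshold and 8.92% of X bases.

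The excess near gene starts was closest to the start itself: 24.5% of weak X peaks lay at most 500 bp from one, 1.38 times the 17.8% of bases. It also depended on rank, with 50% within 1000 bp in the band to rank 2500, 43.4% in the band to rank 5000, 38.1% in the band to rank 10000 and 36.3% in the last. The autosomal shares in the first and last of these bands were 50.4% and 43.4%. Whether the gap between X and autosomes differed between bands was not tested.

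Intergenic sequence, here all sequence outside protein-coding genes, held 2274 of the weak noncoding X peaks (56.3%, where 55.6% of noncoding X bases are), introns 1472 (36.5%, bases 38.3%) and untranslated exons 291 (7.21%, bases 6.10%). The weak peaks were therefore spread over these classes nearly as the bases were. Of the noncoding X peaks past the threshold, 78.3% were intergenic, so that the weak ones differed by -22.0 points (Fisher exact, adjusted p = 1.21e-23), 18.8% in introns and 2.91% in untranslated exons. Of weak autosomal peaks 49.3% were intergenic, 7.005 points fewer than on X (Fisher exact, adjusted p = 8.34e-15), beside 48.2% of autosomal noncoding bases. In the first band 68.03% of the weak X peaks were intergenic and in the second 62.1%, and in the other 4 bands 53.9% to 55.99%.

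Among small RNA genes, transfer RNA genes, which RNA polymerase III transcribes, stood near 88 weak X peaks within 200 bp of their 5′ end (2.18%, interval 1.75 to 2.68%), 3.14 times their 0.695% of noncoding bases. Weak autosomal peaks lay that close in 0.922% of cases, 5.21 times the 0.177% of autosomal noncoding bases. Of the noncoding X peaks past the threshold, 87 of 549 (15.8%, interval 12.9 to 19.2%) lay that close to one. Within the same distance 12 weak X peaks lay near a miRNA gene (0.297%, bases 0.198%) and 11 near a snoRNA gene (0.272%, bases 0.0912%). Another 8 lay near a piRNA gene (0.198%, bases 0.360%) and 1 near a snRNA gene (0.0248%, bases 0.00849%). These shares were not tested. Counted by gene, 167 of 276 tRNA genes on X had a weak noncoding peak within 1000 bp, 118 had one past the threshold and 49 had both. The tRNA gene WBGene00023082 had the strongest, 907 bp from its 5′ end, reaching 80.5 (45.8 in replicate 1 and 38.2 in replicate 2). Neighbouring tRNA genes share peaks, and the 167 genes rest on 138 peaks.

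Of the 2731 protein-coding genes on X, 1178 (43.1%) had a weak noncoding peak within 1000 bp of a 5′ end, and 487 had one found in both replicates. The count of a list of protein-coding genes is read against this 43.1%, and none was tested. For tRNA and other noncoding genes no share over all such genes was set beside the counts. Homeobox genes, which encode developmental transcription factors, had 17 of 25, led by ceh-40 at 73.5 (44.2 in replicate 1 and 28.9 in replicate 2), ceh-30 at 53.8, ceh-41 at 53.8 and lim-6 at 51.3. Each of these 4 peaks was found in both replicates. Nuclear hormone receptor genes had 11 of 23, led by nhr-71 at 70.5 (35.2 and 38.7), nhr-35 at 66.7, nhr-48 at 59.8 and nhr-25, a gene for moulting and epidermal fate, at 59.7. The peaks at nhr-35 and nhr-25 were found in 1 replicate each. The peak at nhr-48 lay closer than 250 bp to an IDR summit.

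Heat shock and DnaJ genes had 5 of 5, with hsp-3, a BiP chaperone of the endoplasmic reticulum, at 79.4 (23.7 in replicate 1 and 54.3 in replicate 2) and hsp-43 at 53.5, while the peak of dnj-14 (38.05) was found in neither replicate and that of dnj-7 (37.4) in replicate 1 alone. The hsp-3 peak lay closer than 250 bp to an IDR summit, so it stood beside a stronger site. Ligand-gated ion channel genes had 10 of 25, with the acetylcholine receptor subunit gene acr-2 at 59.7 (17.2 and 41.1) and lgc-47 at 53.5 (29.8 and 25.98). Neuropeptide and insulin genes had 10 of 34, led by nlp-67 at 55.0 and nlp-2 at 51.4. Cuticle collagen genes, active mainly in larval cuticle synthesis, had 6 of 30, led by col-173 at 53.6 and col-166 at 44.9. Of the 5 yolk protein genes on X, vit-2 had a peak, 943 bp from a 5′ end, at 66.6 (36.5 and 31.2). Of the 2 ribosomal protein genes, rpl-11.2 had one (47.4, replicate 1 alone), also closer than 250 bp to an IDR summit.

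Other noncoding genes had 35 of 74 for miRNA genes, led by mir-392 (69.0), mir-237 (65.2), mir-47 (63.7) and mir-799 (62.3), all found in both replicates. For snoRNA genes it was 20 of 33, with D2021.6 3 bp from a summit of 75.5 (42.4 in replicate 1 and 34.5 in replicate 2). For piRNA genes it was 58 of 162, for snRNA genes 2 of 3 and for pseudogenes 55 of 178. The lincRNA and other ncRNA genes had 1488 of 2565, which rest on 1224 peaks.

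The genes that count X chromosomes and start dosage compensation were looked up whatever their values. The X signal elements sex-1, a nuclear receptor gene, fox-1, an RNA-binding protein gene, and ceh-39, a homeobox gene, had 3, 2 and 1 weak noncoding peaks within 1000 bp of a 5′ end. The strongest at fox-1 reached 65.8 (22.5 in replicate 1 and 42.4 in replicate 2) and lay in an intron, and fox-1 had 6 weak peaks in all within the gene. At sex-1 the strongest had 59.3 and was found in replicate 1 alone, and at ceh-39 it had 34.7 and was found in replicate 2 alone. Their target xol-1, the switch gene of male fate, had no weak noncoding peak within 1000 bp, and the nearest lay 3016 bp from a 5′ end with a signal of 24.5. Past the IDR threshold 3 of these 4 genes had a peak, xol-1 among them, and 2 of the 4 had both kinds. The dosage compensation genes sdc-1 and sdc-2 had no weak noncoding peak within 1000 bp either. The nearest was 4245 bp from a 5′ end at sdc-1, inside the gene, with a signal of 32.1, and 30581 bp away at sdc-2. Of the 2 dosage compensation genes on X, 1 had a peak past the IDR threshold. The gene capg-1 lies on chromosome I and sex-2 was not analysed here.

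The distance of weak noncoding X peaks to the stronger sites was set beside that of noncoding X bases. Within 1000 bp of an IDR summit lay 259 (6.42%), where 6.49% of noncoding bases are, 0.988 times as many. That range was uneven. Closer than 250 bp lay 3.89% of weak peaks and 1.83% of bases, although no weak summit was nearer than 199 bp. From 250 to 499 bp it was 0.0495% against 1.64%, and from 500 to 999 bp 2.48% against 3.02%. Within 2000 bp lay 588 (14.6%, interval 13.5 to 15.7%), where 11.9% of noncoding bases are, 1.23 times as many. Within 5000 bp it was 30.1% against 24.9%, and within 10000 bp 47.9% against 41.5%. Weak autosomal peaks were within 2000 bp in 5.29% of cases, where 3.52% of autosomal noncoding bases are, 1.503 times as many. An excess over bases beyond 1000 bp is therefore seen on autosomes as well. The median distance was 10692 bp, and the farthest lay 344256 bp away. Those within 2000 bp were found in both replicates in 36.6% of cases and had a median signal of 35.3, and those farther away in 29.2% with a median of 32.3. The share near an IDR summit was 18.03% in the first rank band and 10.5% in the last.

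Close to IDR summits the weak peaks were unevenly spaced. No weak summit lay nearer than 199 bp to an IDR summit, 157 lay closer than 250 bp, 2 lay between 250 and 500 bp, and 158 of the weak peaks overlapped an IDR peak. The same step is seen between neighbouring weak peaks, with 325 gaps under 250 bp and 146 between 250 and 500 bp. The shortest gap between weak summits was 199 bp too. Among the 157 weak peaks closest to IDR summits were those named above at hsp-3, nhr-48, rpl-11.2, hda-4 and F09E10.5. These stood beside a stronger site and are not read as separate weak sites. Around the 20 strongest X summits, 13 weak noncoding peaks lay within 2000 bp, a density of 186 per noncoding Mb, and 65 within 5000 bp, a density of 389, beside 285 over all of X. Around the 50 strongest the densities were 333 and 393. These counts carry no test, and 13 peaks set the first of them. The densities also count the bases nearest the summits, which hold no weak summit.

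**Figure D5:**
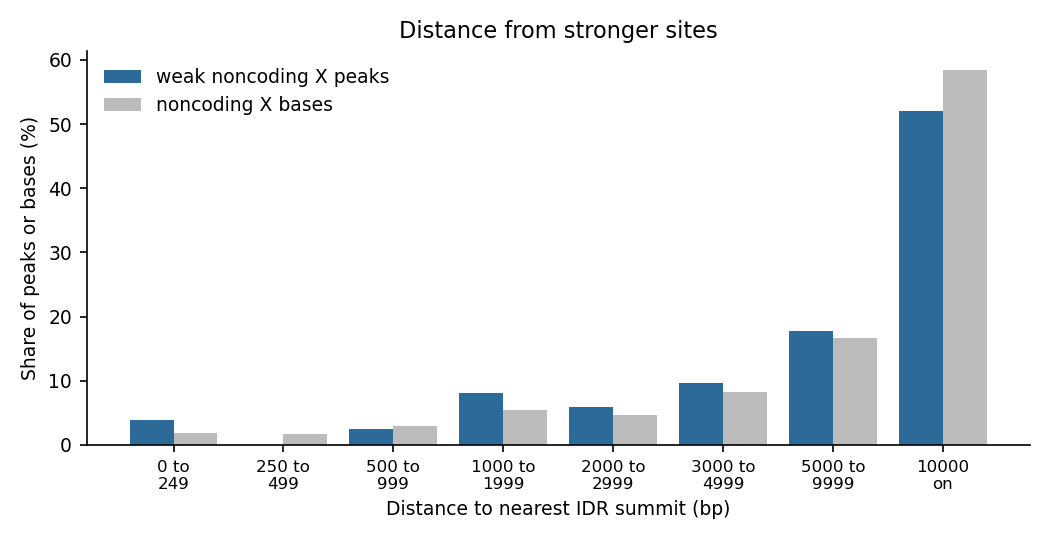
Share of weak noncoding X peaks and of noncoding X bases (%, vertical axis) by distance to the nearest IDR summit (bp, horizontal axis). Weak peaks exceed bases below 250 bp (3.89% against 1.83%) and between 1000 and 2000 bp (8.15% against 5.39%), are nearly absent between 250 and 500 bp, and lie below bases beyond 10000 bp (52.1% against 58.5%).

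Along X the weak peaks were present throughout. In 17 full bins of 1 Mb the density ran from 216 per noncoding Mb at 10 to 11 Mb, with 166 peaks, to 369 at 16 to 17 Mb, with 319 peaks, around a median of 273. The bin at 15 to 16 Mb came next with 302 peaks. The share found in both replicates varied little between bins, from 27.5% to 35.0%. Of 177 windows of 100 kb none was empty, and the median held 23 weak peaks. The fullest were chrX:15300001-15400000 with 48, of which 25% were found in both replicates, chrX:15200001-15300000 with 41, which also holds 5 tRNA genes, and chrX:17600001-17700000 with 41.

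The gap between neighbouring weak noncoding peaks had quartiles of 1166.5, 2550.5 and 5580.5 bp, and 87 of 4036 gaps were over 20000 bp. The widest, 66942 bp between the summits at 11486346 and 11553288, contains the sdc-2 gene (chrX:11522707-11533450), and the next was 57961 bp. In the widest gap the pooled list held 1 peak of any kind, and the replicate lists 4 each, on 35.5 kb of noncoding sequence.

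In base composition the weak X peaks lay between the stronger sites and the chromosome. The mean GC content within 100 bp of summits was 41.1%, against 34.0% in noncoding X windows and 48.9% at noncoding X peaks past the threshold. It was 46.9% in the first band and 37.9% in the last, and on autosomes 47.4% and 38.2%. Repeat-masked bases made up 21.8% of the weak X windows, 30.6% of the weak autosomal windows, 34.6% of noncoding X windows and 11.98% at X peaks past the threshold, and within the weak X peaks they went from 13.0% in the first rank band to 26.9% in the last. The words, the gene starts and the replicate shares given above moved with GC and rank together, and their separate parts were not tested.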

How the data were processed

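Peak lists on ce11 (WBcel235) were used, 1 for each of 2 replicates, 1 pooled and 1 after IDR, and the ce10 lists for 1 alternative. The authors' caller gave each peak a signal and a −log10 q-value, deposited with the lists, and how the signal is scaled is not stated. Which aligner, caller and IDR cutoff produced the lists is not given in the sources used here. Signals of different lists are given side by side and compared by rank correlation alone. Weak peaks and the gene, word and distance lists were chosen with earlier results of these data known.

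Summits were placed on the Ensembl release 115 annotation, with untranslated exons before introns before intergenic sequence. These classes used protein-coding genes only, so intergenic sequence includes genes of other types. Positions count from 1. Shares were compared by two-sided Fisher exact tests with Benjamini-Hochberg adjustment and a threshold of 0.05, after the functions were checked on simulated data. Peaks of 1 library are not replicates of a condition, and neighbouring peaks are not independent, so p-values describe these 2 libraries. Intervals are exact Clopper-Pearson. Named are the genes nearest to the 15 strongest weak peaks and to the 5 strongest found in neither replicate, 8 sex determination and dosage compensation genes, up to 4 genes per list by signal, 3 windows of 100 kb, and the sequences described. Alternatives were other distances, windows, mismatch limits, definitions of noncoding, ranks and single replicates. Python 3.11.15, numpy 2.4.6, pandas 2.3.3, scipy 1.17.1 and matplotlib 3.10.9 were used.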

Additional observations from a re-analysis of the deposited data

Results flagged for a closer look

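The replicate lists held sites on X that the pooled list lacks at the same place. Of 4320 noncoding X summits of replicate 1, 1722 had a summit of replicate 2 within 100 bp, and 33 of these (1.92%) had no pooled summit within 100 bp. They are singled out because they lie outside the pooled list from which the weak peaks were taken. Of the 33, 31 overlapped a pooled peak and 10 overlapped a peak past the IDR threshold, so most lay beside a pooled summit rather than in empty sequence. Their median signal in replicate 1 was 20.6, and the highest was 109 in replicate 1 and 132 in replicate 2. No control list was used to set a background for this count.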

How the results depend on the processing

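Of 83 recomputed values, 69 kept their direction and their side of the threshold, 3 lost the threshold, 3 turned in direction and 8 moved. The X excess in the share found in both replicates lost it with summits within 50 bp (1.66 points, Fisher exact, adjusted p = 0.120) and with ranks to 10000 (1.62 points, adjusted p = 0.500), beside 3.54 points at 200 bp and 4.53 points for any overlap. The lower share of X peaks near gene starts lost it with all gene types (-0.142 points, Fisher exact, adjusted p = 0.869). The difference for CTCTCTTC turned to -0.220 points in windows of 50 bp and to -0.332 points with whole peaks noncoding, where ACACACAC turned to -0.0450 points. None of these 3 passed. The share within 2000 bp of an IDR summit moved to 6.42% at 1000 bp, 30.1% at 5000 bp, 8.71% for weak peaks over 1000 bp away and 17.3% with ranks to 10000, and from the list of 1 replicate it was 11.1 to 11.8%. The 12-letter word moved to 0.124% with at most 1 mismatch and 8.12% with at most 3. Distances, mismatch limits and the removal of near peaks set how much can be counted, and otherwise the cause was not tested. The lists of 1 replicate left out every peak that overlaps an IDR peak, while 158 of the weak peaks overlap one. The share found in both replicates cannot be had from 1 replicate. Single-replicate lists otherwise kept each called difference, and the X share in the first band exceeded that in the last by 6.48 to 9.41 points. With whole peaks noncoding, the X minus autosomal share near gene starts was -3.10 points and the intergenic share against X peaks past the threshold -12.3 points. No paired analysis was possible because there was 1 group. The depth is unknown, so peaks absent from a replicate list may be below its reach.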
